A study of Danio rerio with 4 samples.

Results

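The chamber myosin genes of the zebrafish (Danio rerio) heart described here are myh7, myh7l, myh6 and myl7. They were taken by symbol from the deposited table, where each has 1 row, so they are 4 of 16662 genes. Their values were compared between hearts of tie1 mutants (labelled tie1 KO, 2 libraries) and hearts of siblings (labelled tie1 WT, 2 libraries). The gene tie1 encodes a receptor tyrosine kinase of endothelium and endocardium, the inner lining of the heart. All 4 libraries came from fish with the Tg(kdrl:eGFP) transgene, in which the kdrl promoter drives a green fluorescent protein in endothelial cells, and each was made from hand-dissected, pooled hearts of embryos at 48 hours post fertilisation (hpf). The labels call the controls wild type, but the design text counts heterozygotes among them, so they are called siblings here. Nothing in the sources used here says how many hearts went into a pool or that pools came from separate clutches. The p-values therefore rest only on the spread between these pools, which may be technical. In the test over all genes (limma), the spread of each gene is partly borrowed from that of all genes tested.

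Muscle myosin is the motor of the sarcomere. Its heavy chains carry the head that binds actin and splits ATP and the tail that forms the thick filament, while its light chains wrap the neck of each head and stiffen or regulate it. The zebrafish heart has a single ventricle and a single atrium, and each chamber uses its own heavy chain. The gene myh7 is also known as vmhc, for ventricular myosin heavy chain, and myh7l as its neighbour vmhcl. The gene myh6 is also known as amhc and encodes the atrial heavy chain. The light chain gene myl7, also known as cmlc2, is active in both chambers and serves as a general marker of heart muscle. Comparing these genes within a library therefore sets ventricular, atrial and pan-cardiac messages side by side.

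On GRCz11, myh7 (ENSDARG00000079564) lies on chromosome 2 from 24252987 to 24270062 and myh7l (ENSDARG00000079782) on the same, minus strand from 24274293 to 24289726. A gap of 4230 bases separates these neighbours. As neighbouring genes of one family, they could share reads, so their single values are uncertain and their sum is given too. The gene myh6 (ENSDARG00000090637) occupies the plus strand of chromosome 20 from 53577502 to 53583436, and myl7 (ENSDARG00000019096) the minus strand of chromosome 8 from 40457107 to 40464935. All 4 are annotated as protein coding. No other gene of the table overlaps any of them. The nearest, map4l, ends 480 bases from myh7 on the opposite strand and had values of only 7 to 11 in the 4 libraries. Transcript lengths were not used, so the values are compared between libraries and not as amounts of one message against another.

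The libraries held normalised totals of 2154702 to 2648465, which correspond to an estimated 1770000 to 3240000 assigned reads. The share of mitochondrial ribosomal RNA in the total was 43.4% and 37.6% in mutants 1 and 2, against 32.9% and 30.4% in siblings 1 and 2. The targeted gene tie1 had values of 123 and 88 in mutants 1 and 2, against 558 and 300 in siblings 1 and 2, so the labels and the tie1 level go the same way. The heart muscle markers myl7, tnnt2a, actc1a and tnni1b had summed values of 8744 to 15021 in every library, as a heart sample should. The sums of the groups overlapped. By fold change all 5 rows of these markers were lower in the mutants. In the 2 rows of actc1a both mutants lay below both siblings, as did 18.3% of all genes tested. No gene of the table passed the test of mutants against siblings: limma called 0 of 12118 genes, 0% of them, at an adjusted p under 0.05, while at an unadjusted p under 0.05 there were 316 higher genes (2.61%) and 526 lower ones (4.34%). The chamber myosins are read against that background.

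In the mutant hearts both ventricular heavy chain genes had lower values, at 37.0% and 39.8% of the sibling level, while the atrial heavy chain gene and the pan-cardiac light chain gene overlapped between the groups. None of these differences passed the test across all genes, which compared the groups without pairing libraries. Within each library the ventricular chains stood at about 0.4 of their sibling ratio to myl7. The exact permutation p was 0.33 for each, the smallest possible, and 0.4 after Benjamini-Hochberg adjustment over 6 ratios. These ratios were chosen with earlier results of these data known, and in a limma fit relative to myl7 neither gene passed the threshold. The pooled SD of the log2 ratio, from 2 libraries per group, was 0.0474 for myh7 and 0.157 for myh7l. With other heart muscle genes in place of myl7 the fold of myh7 ranged from 0.406 to 0.810, and this SD from 0.063 to 0.40.

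The ventricular heavy chain gene myh7 had normalised values of 13077 in mutant 1, 7093 in mutant 2, 31906 in sibling 1 and 21256 in sibling 2. The groups did not overlap, and the lower sibling stood 1.63 times above the higher mutant. The mean was 10085 ± 4231 in the mutants and 26581 ± 7531 in the siblings (SD, n = 2 each). The log2 fold change of value + 1 was −1.43 ± 0.43 (standard error, SE), a fold of 0.370 with a 95% interval of 0.189 to 0.724. This SE and interval come from limma and borrow from the spread of all genes. The pooled SD of myh7 itself was larger, at 0.530 (log2). With 2 libraries per group, that SD would be the SE without borrowing, so the interval depends on it. The adjusted p was 0.525 in limma, and the unadjusted p of 0.00863 ranked 199th among all genes tested. Relative to the sibling mean, mutant 1 stood at 0.492 and mutant 2 at 0.267.

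The neighbouring gene myh7l, a second ventricular heavy chain gene, had 14781 and 8122 in mutants 1 and 2 and 36842 and 20593 in siblings 1 and 2. The order of the libraries was that of myh7, with both mutants below both siblings and mutant 2 lowest. The mean was 11451.5 ± 4709 against 28717.5 ± 11490 (SD, n = 2 each). The log2 fold change was −1.33 ± 0.46, a fold of 0.398 with a 95% interval of 0.194 to 0.814, and the limma adjusted p was 0.613. Here too the pooled SD of the gene itself, 0.602, was larger than the SE. Mutant 1 stood at 0.515 of the sibling mean and mutant 2 at 0.283.

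The sum of myh7 and myh7l, which does not depend on how reads were divided between them, was 27858 and 15215 in mutants 1 and 2, against 68748 and 41849 in siblings 1 and 2. It had a log2 fold change of −1.38 ± 0.50 and an adjusted p of 0.673. As a share of the normalised total without mitochondrial ribosomal RNA, the sum took 1.86% and 1.03% in the mutants, against 4.25% and 2.79% in the siblings. The ventricular heavy chains ranked 4th to 6th among all genes in the sibling libraries, by level, and 9th to 14th in the mutant libraries.

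The atrial heavy chain gene myh6 had 14807 and 9316 in mutants 1 and 2, against 17731 and 12061 in siblings 1 and 2. Here the groups overlapped, since mutant 1 lay above sibling 2. The mean was 12061.5 ± 3883 against 14896 ± 4009 (SD, n = 2 each), with a log2 fold change of −0.32 ± 0.39 and an adjusted p of 0.905. The 95% interval of the fold, 0.437 to 1.48, holds both a decrease to under 0.5 and a moderate increase, so these libraries do not show that myh6 was unaltered. The direction turned to 0.23 under quantile normalization and to 0.02 without mutant 2.

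The pan-cardiac regulatory light chain gene myl7 had 3842 and 1966 in mutants 1 and 2, against 3595 and 2469 in siblings 1 and 2. The mutants held both the highest and the lowest of the 4 values. The mean was 2904 ± 1327 against 3032 ± 796 (SD, n = 2 each), with a log2 fold change of −0.12 ± 0.35, a fold of 0.923 with a 95% interval of 0.531 to 1.60, and an adjusted p of 0.969. The direction turned to 0.01 under quantile normalization, to 0.37 without mutant 2 and to 0.15 without sibling 1.

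**Figure D1:**
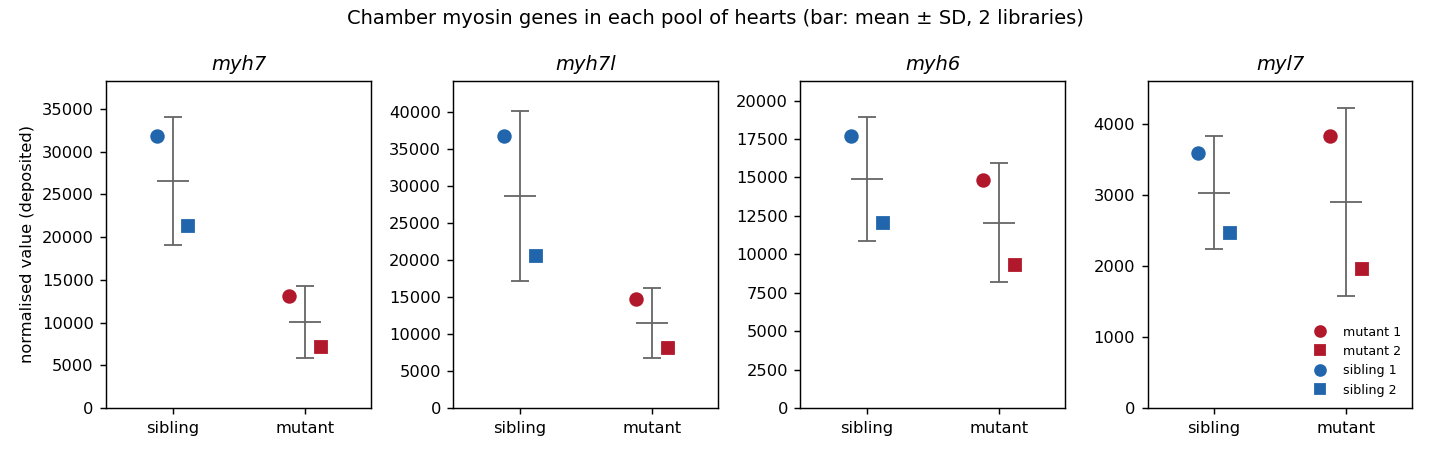
Deposited normalised values (vertical axes, each from 0) of the chamber myosin genes in 2 sibling and 2 mutant libraries, with the group mean and SD as a grey bar. For myh7 and myh7l both mutant points lie below both sibling points, while for myh6 and myl7 the groups overlap, and in every panel library 1 lies above library 2 of its group.

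Of the 4 genes, 2 were lower in each mutant than in each sibling, and none was higher in each mutant. Among all genes tested, 18.3% were lower and 15.7% higher in this sense, and 30.3% of the 145 genes with a mean of at least 1000 were lower, so the lack of overlap alone does not set these genes apart. In size, myh7 had the second lowest log2 fold change of those 145 abundant genes and myh7l the fourth lowest. The lowest was pygmb, a muscle glycogen phosphorylase gene, at −1.57 ± 0.29, and the third was the globin gene hbbe1.2 at −1.40 ± 0.21. In the same order myh6 was 43rd and myl7 70th, and the median of the abundant genes was −0.10.

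The libraries of one genotype differed from each other in a shared way. Mutant 1 exceeded mutant 2 by a factor of 1.84 for myh7, 1.82 for myh7l, 1.59 for myh6 and 1.95 for myl7. Sibling 1 exceeded sibling 2 by 1.50, 1.79, 1.47 and 1.46 for the same genes. Counting error, as estimated from the fitted read numbers, was at most 2.60% of the value for any of the 4 genes in any library. Error from preparing libraries out of 2 ng of RNA is not part of that estimate and was not tested. In bulk RNA, fewer heart muscle cells in a pool and less of a message per cell cannot be told apart.

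Ratios within a library remove this shared part. There were 6 such ratios among the 4 genes, chosen with earlier results of these data known. With 2 libraries against 2, the exact permutation test (two-sided) cannot give a p below 0.33.

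The ratio of myh7 to myl7 was 3.40 in mutant 1, 3.61 in mutant 2, 8.87 in sibling 1 and 8.61 in sibling 2. The groups were far apart relative to the spread within them, with means of 3.51 ± 0.144 and 8.74 ± 0.188 (SD, n = 2 each). The mutant ratio was 0.401 of the sibling ratio. On the log2 scale the pooled SD within groups was 0.0474 for this ratio, against 0.530 for myh7 alone. The exact permutation p was 0.33, the smallest possible, and 0.4 after Benjamini-Hochberg adjustment over the 6 ratios.

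The ratio of myh7l to myl7 was 3.85 and 4.13 in mutants 1 and 2, against 10.2 and 8.34 in siblings 1 and 2, a fold of 0.431 without overlap. The ratio of myh6 to myl7 was 3.85 and 4.74 against 4.93 and 4.88. Mutant 2 and sibling 2 were close together here, and the distance between them was smaller than that between the mutants, although the groups did not overlap. Its fold was 0.871. Each of these ratios again had an exact permutation p of 0.33 and an adjusted p of 0.4. Among all other genes, 6.54% had a ratio to myl7 that was lower in both mutants than in both siblings and 7.90% one that was higher in both.

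Set against the atrial chain, the ventricular chains were also lower in the mutants. The ratio of myh7 to myh6 was 0.883 and 0.761 in mutants 1 and 2, against 1.80 and 1.76 in siblings 1 and 2, a fold of 0.461. That of myh7l to myh6 was 0.998 and 0.872 against 2.08 and 1.71, a fold of 0.495. Both had no overlap, an exact permutation p of 0.33 and an adjusted p of 0.4. How many of all genes lack overlap in a ratio to myh6 was not counted. Put as shares of the summed values of these 3 heavy chain genes, the atrial chain took 34.7% and 38.0% in mutants 1 and 2, against 20.5% and 22.4% in siblings 1 and 2. Transcript lengths were not used, so these are not shares of heavy chain message.

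The ventricular pair stood in overlapping proportions to each other. The ratio of myh7 to myh7l was 0.885 and 0.873 in mutants 1 and 2, against 0.866 and 1.03 in siblings 1 and 2. The mutant values lay between the sibling values, with a fold of 0.930 and an exact permutation p of 1. How far reads shared between these genes enter this ratio was not tested.

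**Figure D2:**
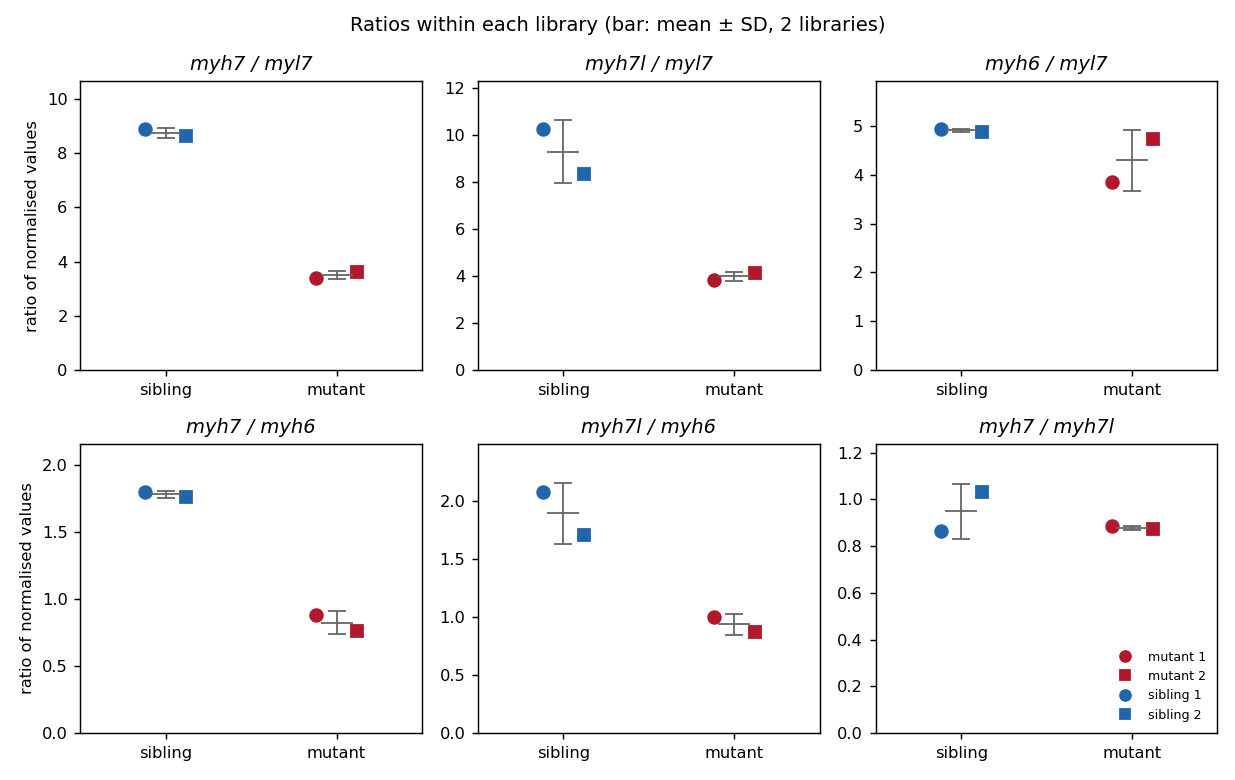
The 6 ratios of normalised values within each library (vertical axes, each from 0), with group mean and SD in grey. The ratios of myh7 and myh7l to myl7 and to myh6 are lower in both mutant libraries, the ratio of myh6 to myl7 differs little between mutant 2 and the siblings, and that of myh7 to myh7l overlaps.

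The size of the ventricular difference depended on the heart muscle gene used as the reference. With tnnt2a, the cardiac troponin T gene, as denominator, the ratio of myh7 was 2.66 and 2.48 in mutants 1 and 2, against 6.49 and 6.17 in siblings 1 and 2. With tnni1b, a troponin I gene of the heart, it was 2.42 and 2.26 against 6.26 and 5.30. The folds of 0.406 and 0.406 stand close to that with myl7, and both genes themselves had ratios to myl7 that overlapped between the groups. With the more abundant row of the cardiac actin gene actc1a, the ratio of myh7 was 15.1 and 9.25 in mutants 1 and 2, against 24.4 and 18.6 in siblings 1 and 2, a fold of 0.555. With the titin gene ttn.1 the fold was 0.678, with the myosin-binding protein C gene mybpc3 it was 0.644, and with the myomesin gene myom1b, at 13.3 and 10.7 against 13.4 and 16.1, it was 0.810. With each of these 6 denominators both mutants stayed below both siblings for myh7, although with myom1b mutant 1 and sibling 1 were nearly level. These ratios share myh7 and the same libraries, and how many of all genes do likewise was not counted. For myh6 the direction turned with the denominator, with folds of 0.881 and 0.882 for tnnt2a and tnni1b but from 1.21 (actc1a) to 1.76 (myom1b) for the other 4. All 6 denominators were added after the data had been seen.

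A limma fit of every gene relative to myl7 gave log2 differences of −1.32 ± 0.47 for myh7, −1.21 ± 0.47 for myh7l and −0.20 ± 0.48 for myh6. The unadjusted p was 0.00527, 0.0094 and 0.679, and each adjusted p rounded to 1. The gene past the threshold in that fit was the skeletal myosin gene myhz1.3, 1 of 12117 genes or 0.00825%. It had 2 and 171 in mutants 1 and 2, against 415 and 495 in siblings 1 and 2, so the mutants themselves were far apart. Without subtracting myl7 its limma adjusted p was 0.577 and its SE 1.41, against an SE of 0.71 in this fit. In this fit every gene carries the deviations of myl7 between pools, so the SE of 0.47 reflects the spread of all genes rather than that of the myh7 ratio itself.

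Among other sarcomere genes, some had nearly the same ratio to myl7 in both genotypes and others a lower one in the mutants. Of 26 symbols in a list of pan-cardiac sarcomere genes, 22 had rows, 23 rows in all, and each had the mean of 10 needed for the test. Of these, 22 were lower and 1 higher, with a median log2 fold change of −0.55 against 0.00 over all genes tested. None passed the threshold, 9 were lower at an unadjusted p under 0.05, where 4.34% of all genes were, and 11 did not overlap, with the mutants below, as did 18.3% of all genes tested and 30.3% of those with a mean of at least 1000. The median ranged from −0.78 without sibling 2 to −0.23 without sibling 1, and was −0.51 over the rows with a mean of at least 50. The list shares ckma with the skeletal muscle markers described below. Its lowest log2 fold change, −3.26, belonged to the less abundant actc1a row, at 2 and 8 against 54 and 44. Whether skeletal muscle in the pools entered these rows was not tested. By library, the median distance from the sibling mean was −0.25 (mutant 1), −0.67 (mutant 2), 0.26 (sibling 1) and −0.26 (sibling 2), which leaves mutant 1 and sibling 2 nearly level.

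The giant filament genes had the highest values of that list, which are not corrected for transcript length and do not rank amounts of message. The titin gene ttn.2 had 21517 and 16806 against 38955 and 19777. Close to it on the same strand of chromosome 9, ttn.1 had 9071 and 7337 against 20581 and 10870. The log2 fold changes of ttn.2 and ttn.1 were −0.55 ± 0.46 and −0.87 ± 0.39, with limma adjusted p of 0.855 and 0.718. How far reads shared between these titin genes enter their values was not tested. For ttn.1 both mutants lay below both siblings, and also in the ratio to myl7, which was 2.36 and 3.73 against 5.73 and 4.40. A pair of troponin genes of the thin filament were close to myl7 instead, with groups that overlapped. The troponin I gene tnni1b had 5398 and 3140 against 5100 and 4011, at −0.14 ± 0.32, and tnnt2a had 4915 and 2863 against 4916 and 3444, at −0.13 ± 0.33.

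The genes of a pair of proteins that bind the thick filament were lower in each mutant than in each sibling. The myosin-binding protein C gene mybpc3 had 1923 and 1340 in mutants 1 and 2, against 3665 and 2134 in siblings 1 and 2, at −0.80 ± 0.31. The M-band gene myom1b, which encodes a myomesin that cross-links thick filaments, had 983 and 664 against 2377 and 1317, at −1.13 ± 0.32, with an adjusted p of 0.459. In 9 of the 23 rows the ratio to myl7 was lower in both mutants than in both siblings, and in 1 it was higher, where 6.54% and 7.90% of all genes were.

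**Figure D3:**
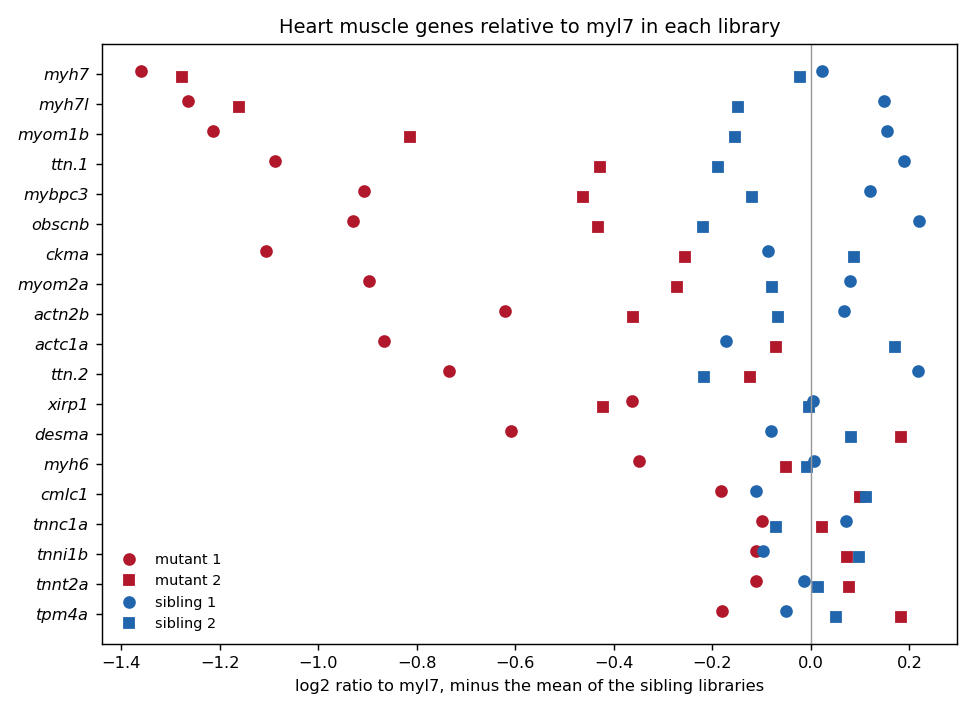
Each point is the log2 ratio of a gene to myl7 in 1 library, minus the mean of that ratio in the siblings (horizontal axis), for the 3 heavy chain members and the sarcomere rows with a mean value of at least 500. By the mean of the mutants myh7 and myh7l are lowest, with both mutants between −1.36 and −1.16. The gene myom1b is next, at −1.215 in mutant 1 and −0.814 in mutant 2. In contrast, tnnt2a, tnni1b, tnnc1a, tpm4a and cmlc1 stay within 0.2 of zero in all 4 libraries.

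The other myosin genes of the table comprised 31 rows, of which 28 were tested. Of these, 22 were lower and 6 higher, and none passed the threshold. At an unadjusted limma p under 0.05 there were 8 lower rows, where 4.34% of all genes were. In 12 rows both mutants lay below both siblings, where 18.3% of all genes did. The median log2 fold change was −0.74, and ranged from −0.96 without mutant 2 to −0.39 without mutant 1. Over the rows with a mean of at least 50 it was −0.26. The gene with the highest mean value was myh7bb, at 4784 and 3336 in mutants 1 and 2, against 3836 and 2347 in siblings 1 and 2. It and its paralog myh7ba, at 3007 and 1878 against 2519 and 1230, belong to the myh7b type of sarcomeric heavy chain and did not share the low values of myh7. Their log2 fold changes were 0.41 ± 0.32 and 0.43 ± 0.37, with adjusted p of 0.832 and 0.857 and groups that overlapped. In ratio to myl7, myh7bb stood at 1.25 and 1.70 against 1.07 and 0.951, and myh7ba at 0.783 and 0.955 against 0.701 and 0.498. Each ratio was higher in both mutants than in both siblings, as was that of 7.9% of all other genes. The exact permutation p was 0.33 each, the smallest possible. The gene myh7ba was named after its values were seen.

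Of the non-muscle heavy chains, which drive contraction of the cell cortex, myh10 had 2233 and 2573 in mutants 1 and 2, against 4759 and 3744 in siblings 1 and 2. Both mutants lay below both siblings, at −0.82 ± 0.26 with an adjusted p of 0.549. Its relative myh9b had 1852 and 2266 against 2340 and 2322, at −0.19 ± 0.23. The cardiac light chain gene cmlc1 had 2204 and 1371 against 2165 and 1736, at −0.16 ± 0.28, and so was close to myl7. Another light chain gene of the pan-cardiac list, myl4, had low values of 6 and 23 against 35 and 27, at −1.29 ± 0.57. Of the 12 light chain rows besides myl7, 10 were lower and 2 higher, with a median of −0.54.

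Heavy chains of skeletal muscle had far lower values and followed another pattern across libraries. Their 11 rows summed to 88 in mutant 1, 719 in mutant 2, 1087 in sibling 1 and 1175 in sibling 2. Mutant 1 was thus lowest for skeletal heavy chains, whereas mutant 2 was lowest for myh7 and myh7l. The whole list of skeletal muscle markers, 13 rows that include the muscle actin and creatine kinase genes acta1b and ckma that heart muscle also expresses, summed to 1578 and 1842 in mutants 1 and 2, against 3366 and 3248 in siblings 1 and 2, and all but 1 row was lower. In every library this sum was smaller than the value of myh7 alone.

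**Figure D4:**
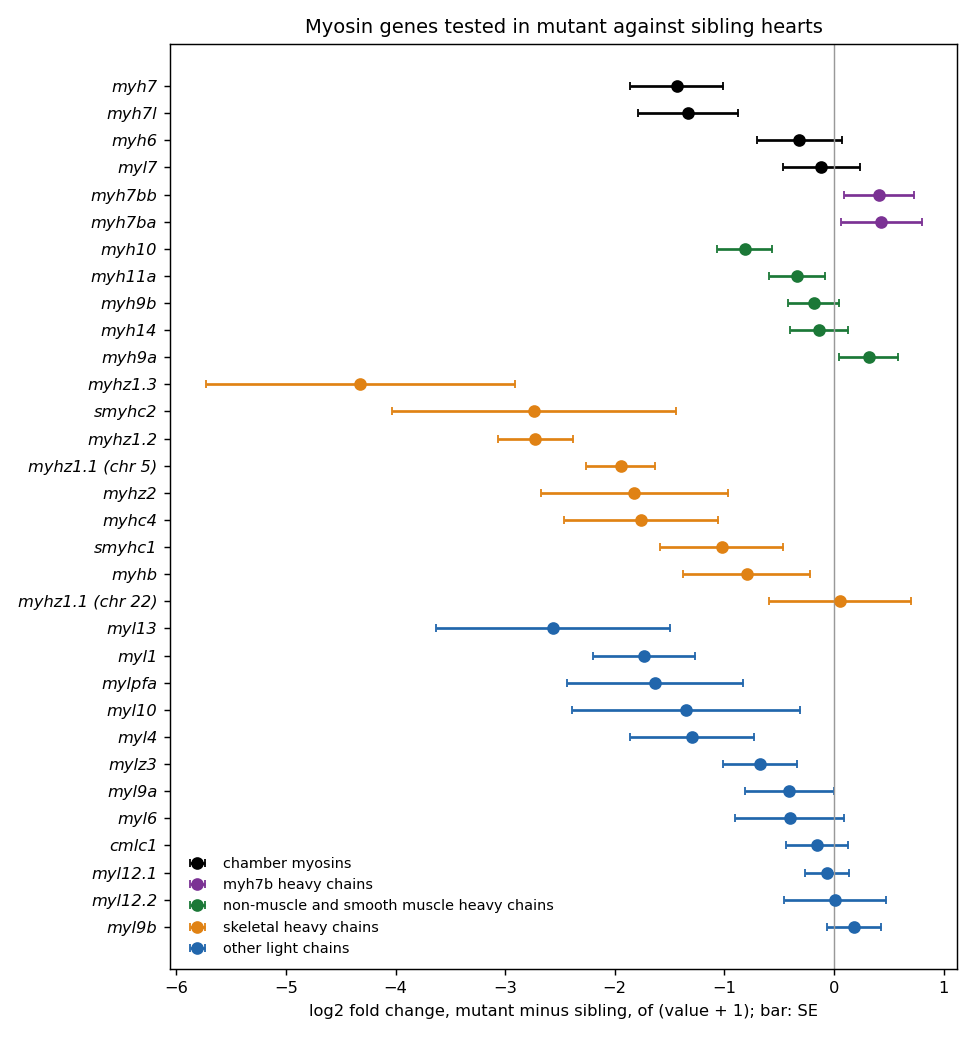
Log2 fold changes (horizontal axis, mutant minus sibling, bars show SE) of the chamber myosin genes and of the 28 other myosin rows tested. The ventricular genes myh7 and myh7l lie near −1.4, myh6 and myl7 at −0.32 and −0.12, and myh7bb and myh7ba at 0.41 and 0.43. Most skeletal heavy chains lie below −1, with SE from 0.31 (myhz1.1 on chromosome 5) to 1.41 (myhz1.3).

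No gene that folds or regulates myosin passed the test. Of 13 symbols fixed for this group, 11 had rows and 10 were tested, with 7 lower, 3 higher and a median of −0.26. At an unadjusted p under 0.05 there were 4 lower genes, where 4.34% of all genes were, and in 5 both mutants lay below both siblings, where 18.3% of all genes did. Besides mybpc3, the genes with the highest mean values were mylk3 and unc45b. The cardiac myosin light chain kinase gene mylk3 had 608 and 312 against 582 and 352, at −0.06 ± 0.35. The gene unc45b, of a chaperone of muscle myosin, had 344 and 272 against 517 and 406, at −0.58 ± 0.23. The kinase gene overlapped between the groups, while unc45b was lower in both mutants, with an adjusted p of 0.684.

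Regulators of chamber identity did not all go the way of the ventricular heavy chains. In the ventricular list 5 of 6 genes were tested, and 4 were lower, 1 higher, with a median of −0.31 and none past the threshold. The homeobox gene nkx2.5, which maintains ventricular identity in the zebrafish, had 223 and 135 in mutants 1 and 2, against 210 and 104 in siblings 1 and 2, at 0.23 ± 0.36. The Iroquois gene irx1a, active in the ventricle, had 106 and 121 against 182 and 135, at −0.47 ± 0.24, and nkx2.7, a relative of nkx2.5, had 50 and 37 against 49 and 49, at −0.18 ± 0.28. The repressor gene hey2, named after its values were seen, had 28 and 15 against 57 and 38, at −1.14 ± 0.39 with an adjusted p of 0.608.

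Of the atrial list all 4 genes were tested, and 1 was lower and 3 higher, with a median of 0.21. The nuclear receptor gene nr2f1a, which maintains atrial identity in the zebrafish, had 252 and 273 against 272 and 250, at 0.01 ± 0.20. The T-box gene tbx5a had 257 and 181 against 327 and 269, at −0.46 ± 0.24, and meis2b, active in part of the atrium, had 79 and 108 against 72 and 45, at 0.69 ± 0.30 with an adjusted p of 0.718. No gene of either list passed the test. The median of the ventricular list turned to 0.029 without mutant 2, and that of the atrial list to −0.094 without sibling 1.

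Genes whose pattern across the 4 libraries was most like that of a member were found by the root mean square difference of centred log2 values among 3013 other genes with a mean of at least 100. For myh7 the nearest was myh7l at 0.104, followed by pygmb at 0.139, the carbonic anhydrase gene cahz at 0.184, myom1b at 0.211 and mxra5b at 0.214. For myl7 the nearest were rab8b, a small GTPase gene, at 0.0247, pcyt2, an enzyme gene of phospholipid synthesis, at 0.0547, gna12a, a G protein subunit gene, at 0.0594, tnnt2a at 0.0673 and the troponin C gene tnnc1a at 0.0686. The atrial chain myh6 was 59th nearest to myl7, at 0.145, and 278th nearest to myh7, at 0.565. With 4 libraries such likeness is a description only.

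Markers of other cell types also stood at different levels in the pools. Erythrocyte markers, with all 7 rows lower, summed to 2965 and 2955 in the mutants against 7679 and 7346 in the siblings. In all 7 rows both mutants lay below both siblings, where 18.3% of all genes tested did. Their median log2 fold change was −1.40, near that of myh7 (−1.43). Endothelial and endocardial markers, with all 6 lower, summed to 3237 and 1983 against 5194 and 3246. These 6 include tie1, the targeted gene itself. In 4 of them both mutants lay below both siblings, as did 18.3% of all genes tested. The gene kdrl, with the highest mean value of the 6, had 1313 and 664 in mutants 1 and 2 against 2083 and 1334 in siblings 1 and 2. Its log2 fold change was −0.84 ± 0.35. The endocardial gene nfatc1, with the smallest change of the 6 (−0.06), overlapped, at 165 and 147 against 195 and 135. Smooth muscle markers summed to 278 and 244 against 366 and 292 over 5 rows, of which 3 were tested and all 3 were lower, and epicardial markers summed to 43 and 80 against 87 and 102 over 4 rows, all lower. Their part in the values of the ventricular chains was not tested. The ratios of myh7 to heart muscle genes within a library depended on the denominator, with folds from 0.401 (myl7) to 0.810 (myom1b). Whether the pools differed in their share of ventricle was not tested.

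**Figure D5:**
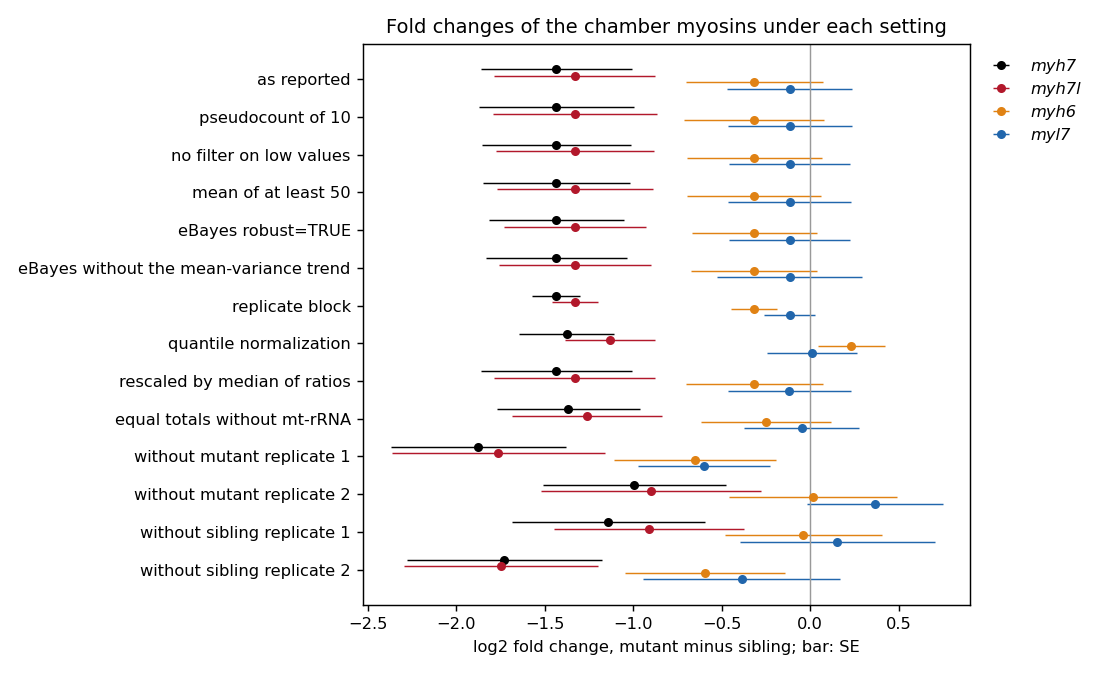
Log2 fold changes (horizontal axis, bars show SE) of the 4 genes as reported and under each other setting. Those of myh7 and myh7l stay between −1.88 and −0.90, and those of myh6 and myl7 lie on both sides of 0.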

How the data were processed

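RNA of 4 heart pools was sequenced from 2 ng of total RNA each, with a strand-keeping kit made for tiny inputs, per the labels' protocols. FastQC, STAR 2.4.0a, Subread, featureCounts 1.4.5-p1 and the build GRCz11 appear in the submitters' processing notes. How the values were normalised, which strand setting was counted and which genes were dropped are points not stated by the sources used here. One table was deposited by the authors, with normalised read counts rounded to whole numbers, treated here as a score and not as raw reads. Low values are spaced as if reads had been divided by a factor for each library. Fitted factors of 0.904, 0.75, 1.34 and 1.15 (mutants 1 and 2, siblings 1 and 2) gave the estimated reads. Factors above 1 merge neighbouring numbers, so reads were not recovered and no test for counts was used.

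Values were analysed as log2(value + 1), which understates changes of low genes, for the 12118 genes with a mean of at least 10. Mutants and siblings were compared in limma 3.58.1 (R 4.3.3) with its trended prior variance, and p-values were adjusted over all genes by the Benjamini-Hochberg method. Ratios were tested by exact permutation over libraries. Members and lists were chosen with earlier results of these data known. The genes named are the members, any past the threshold, and the 5 nearest in pattern to myh7 and to myl7. Of each list, except those of cell type markers, the 3 with the highest mean value are named too. The genes cmlc1, myl4, myh7ba, hey2 and hbbe1.2 were named after their values were seen. So were the marker genes kdrl, nfatc1, acta1b and ckma. Older gene names come from RefSeq's GRCz12tu table, of which no coordinates were used. Other settings were a pseudocount of 10, no filter or a mean of at least 50, other variance models, 3 other scalings, a replicate block and leaving out each library.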

Additional observations from a re-analysis of the deposited data

How the results depend on the processing

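The log2 fold changes of myh7, myh7l and their sum stayed negative under every setting run, and ranged from −1.88 to −0.99, −1.76 to −0.90 and −1.82 to −0.95 without 1 library. Those of myh6 and myl7 ranged from −0.65 to 0.018 and from −0.60 to 0.37 without 1 library and were 0.23 and 0.010 under quantile normalization. The ratio of myh7 to myh7l ranged from −0.23 to 0.021 (log2) without 1 library. The other ratios, and the fits relative to myl7, kept their direction under the planned settings: myh7 to myl7 ranged from −1.36 to −1.28, myh7l to myl7 from −1.36 to −1.06 and myh6 to myl7 from −0.35 to −0.05 without 1 library. With a denominator chosen after seeing the data, the myh6 ratio turned to 0.27 (actc1a), 0.56 (ttn.1), 0.48 (mybpc3) and 0.81 (myom1b). The count of genes past the threshold was 0 as reported, 13 with a mean of at least 50, 16 with limma's robust setting and 5 after scaling to equal totals without mitochondrial ribosomal RNA, and none of the 4 genes was among them. Median list values without 1 library ranged from −0.58 to 0.029 for ventricular identity, −0.094 to 0.36 for atrial identity, −0.78 to −0.23 for sarcomere genes, −0.96 to −0.39 for other myosins and −0.54 to −0.028 for myosin folding, and with a mean of at least 50 the medians were 0.0084 for atrial identity and −0.26 for other myosins, over fewer genes.

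With a replicate block, 95 genes passed the threshold, among them myh7 (−1.43, limma adjusted p = 0.00138) and myh7l (−1.33, adjusted p = 0.00138), and their sum passed in its own fit (−1.38, adjusted p = 0.00182). In the blocked fit relative to myl7, myh7 passed too (−1.32, adjusted p = 0.0251) and myh7l did not (adjusted p = 0.0583). The labels give both groups the numbers 1 and 2 but do not say that a number marks a shared clutch or day, and 2 pairs are too few to decide it from the data. Deviations of same-numbered libraries correlated at 0.198 across genes, which are not independent replicates. The block was therefore not used for the results, and the cause of the change was not tested. The number of libraries limits the precision, and what the small RNA input adds to the spread was not tested.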
